A study of Mus musculus with 6 samples.

Results

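The clustered protocadherin (Pcdh) genes were taken as every gene whose symbol begins with Pcdha, Pcdhb, Pcdhga, Pcdhgb or Pcdhgc followed by a number or, for the C-type alpha genes, by c. The rule gave 58 of the 24564 listed genes. They were 12 alpha genes with 2 C-type alpha genes, 22 beta genes, and 12 gamma A, 7 gamma B and 3 C-type gamma genes. In the RefSeq annotation of GRCm38 the 3 clusters followed each other on chromosome 18. The alpha cluster ran from 36930285 to 37188897, the beta cluster from 37264998 to 37521419 and the gamma cluster from 37661775 to 37841873.

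Clustered protocadherins are cadherin-family proteins of the cell surface that bind homophilically, that is, each isoform binds the same isoform on a facing membrane. In the alpha and gamma clusters each variable exon has its own promoter and is spliced to constant exons shared by the whole cluster, whereas each beta gene is a single exon. In most neurons the alternate promoters are chosen stochastically with the architectural proteins CTCF and cohesin, and the C-type genes are regulated apart from them. Olfactory sensory neurons (OSNs) need the clusters for their axons to converge in the olfactory bulb.

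The matrices came from main olfactory epithelium of mice, dissociated with papain and counted by unique molecular identifiers (UMIs, tags that mark 1 captured molecule each). The 2 swap libraries carry Cbx*/* with a Cre transgene. In that allele the Cbx1 coding sequence (HP1β) is replaced by a conditional cassette, so that after Cre recombination Cbx5 (HP1α) is made from the Cbx1 promoter. Swap mice are runts. The controls are 1 library labelled WT with the same Cre and 1 labelled Cbx*/*, which names no Cre, so the controls differ in genotype from each other. Differences between control replicates 1 and 2 below therefore cannot be told apart from a difference between these genotypes. The 2 remaining libraries, 1 a genotype, are gg8-tTA; tetOP2iresGFP, in which gg8-tTA drives the P2 receptor (Olfr17), and gg8-tTA alone. Neither ages nor numbers of animals are in the labels. The study's methods give 2 biological replicates for the single-cell experiment. The p-values of swap against control measure the spread between libraries. Those of cell stages or classes compared within libraries measure how far such differences vary from library to library. In both, biological and technical differences cannot be told apart.

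The libraries held 58498968 to 63277934 UMIs in swap and control, 32005196 in tetOP2 and 35298494 in gg8tTA. Between 2563 and 5091 cells a library were kept, and any pair of libraries shared at most 13 barcodes. Of the barcodes of control replicate 2, 57.5% passed the filter, against 84.4% or more in the others. The labels call the cells OSNs, but B cells, erythroid cells, glia and sustentacular cells (the supporting cells of the epithelium) were present in every library. Cell names below mark resemblance to marker lists. Mature OSNs (mOSNs) numbered 535 to 1229 a library and held 2330 to 9715 CPM (UMI counts scaled to a common library total) of Omp, the olfactory marker protein gene. Omp in sustentacular cells, which should lack it, was 70.9 CPM in swap replicate 1, 353 in swap replicate 2, 21.3 in control replicate 1 and 633 in control replicate 2. Signal in cells that should lack a gene thus differed between libraries, and its part in the results below was not tested.

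In the feature list, the constant exons were counted apart as PcdhaCon for the alpha cluster and PcdhgCon for the gamma cluster, which are not members. UMIs of the alpha and gamma genes therefore came from outside the constant exons. In mOSNs, PcdhaCon was far more abundant than the alpha genes together. There were 13.1 and 22.2 alpha gene UMIs per 100 PcdhaCon UMIs in swap replicates 1 and 2, 14.6 and 25.2 in the controls, 2.53 in tetOP2 and 3.01 in gg8tTA. Gamma genes gave 50.1, 76.3, 41.4 and 102 UMIs per 100 PcdhgCon UMIs in the same swap and control order, 4.66 in tetOP2 and 5.88 in gg8tTA. In swap and in control replicate 2 lay above replicate 1, and the tetOP2 and gg8tTA libraries lay lowest. Identity in the alpha and gamma clusters was thus seen for part of the transcripts, and to a different extent in each library. The matrices of tetOP2 and gg8tTA do not show whether introns were counted as in the others, so their alpha and gamma gene levels and numbers of genes per cell cannot be told apart from a difference in counting. The constant exons and the beta genes are used below for most levels. Sums over all members and numbers of genes per cell also hold the alpha and gamma genes, so this limit applies to them.

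All 58 genes had at least 1 UMI in mOSNs of the swap and control libraries together. Their levels, as means over these 4 libraries in CPM and not divided by length, ran from 0.0205 CPM for Pcdhgc5 to 13.8 CPM for Pcdhb1, with a median of 1.94. The median was 2.62 CPM among beta genes, 2.00 among the 12 alpha genes, 1.43 among gamma A genes, 0.942 among gamma B genes and 0.114 among C-type gamma genes. Of the 10 genes with the highest mean CPM, 7 were beta genes (Pcdhb1, Pcdhb14, Pcdhb17, Pcdhb16, Pcdhb7, Pcdhb20 and Pcdhb19), 2 were alpha genes (Pcdha11 and Pcdha9) and 1 was a gamma A gene (Pcdhga5). Because the alpha and gamma genes lack their constant exons here, this order ranks captured UMIs and not transcripts.

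Pcdhb1, the first gene of the beta cluster, had 65 and 227 UMIs in mOSNs of swap replicates 1 and 2 and 99 and 335 in the controls. The tetOP2 library had 8 and the gg8tTA library 7. As levels these were 7.84 and 18.6 CPM in swap, 7.27 and 21.3 in control, 1.22 in tetOP2 and 1.09 in gg8tTA. Both replicates 2 lay above both replicates 1 and the gg8-tTA pair lay lowest, so the rank of Pcdhb1 depended on the library. The alpha gene UMIs per PcdhaCon UMI grouped the libraries in the same way. Whether capture has a part in the levels of Pcdhb1, and in beta sums that hold it, was not tested.

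Pcdhb17 was steadier, with 11.2 and 8.11 CPM in swap, 6.61 and 10.3 in control, 6.55 in tetOP2 and 6.98 in gg8tTA. Pcdhb14 had 8.45 and 10.98 CPM in swap, 5.22 and 12.98 in control, 3.96 in tetOP2 and 4.81 in gg8tTA. Pcdha11 had 65 and 150 UMIs in swap and 52 and 154 in control, but 0 in tetOP2 and 4 in gg8tTA. Its low count there goes with the low share of alpha gene UMIs per PcdhaCon UMI in those libraries.

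The 5 C-type genes held few UMIs. Pcdhac2 was the highest at 2.16 CPM, followed by Pcdhgc3 at 0.676, Pcdhac1 at 0.430, Pcdhgc4 at 0.114 and Pcdhgc5 at 0.0205, the last from 1 UMI in 1 library. Pcdhac2 gave 83.4% of C-type alpha UMIs, as the mean level over the 4 libraries. With the C-type genes counted apart, the highest shares of a group's UMIs were 16.3% in the beta group (Pcdhb1) and 26.2% in the alpha group (Pcdha11).

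**Figure D1:**
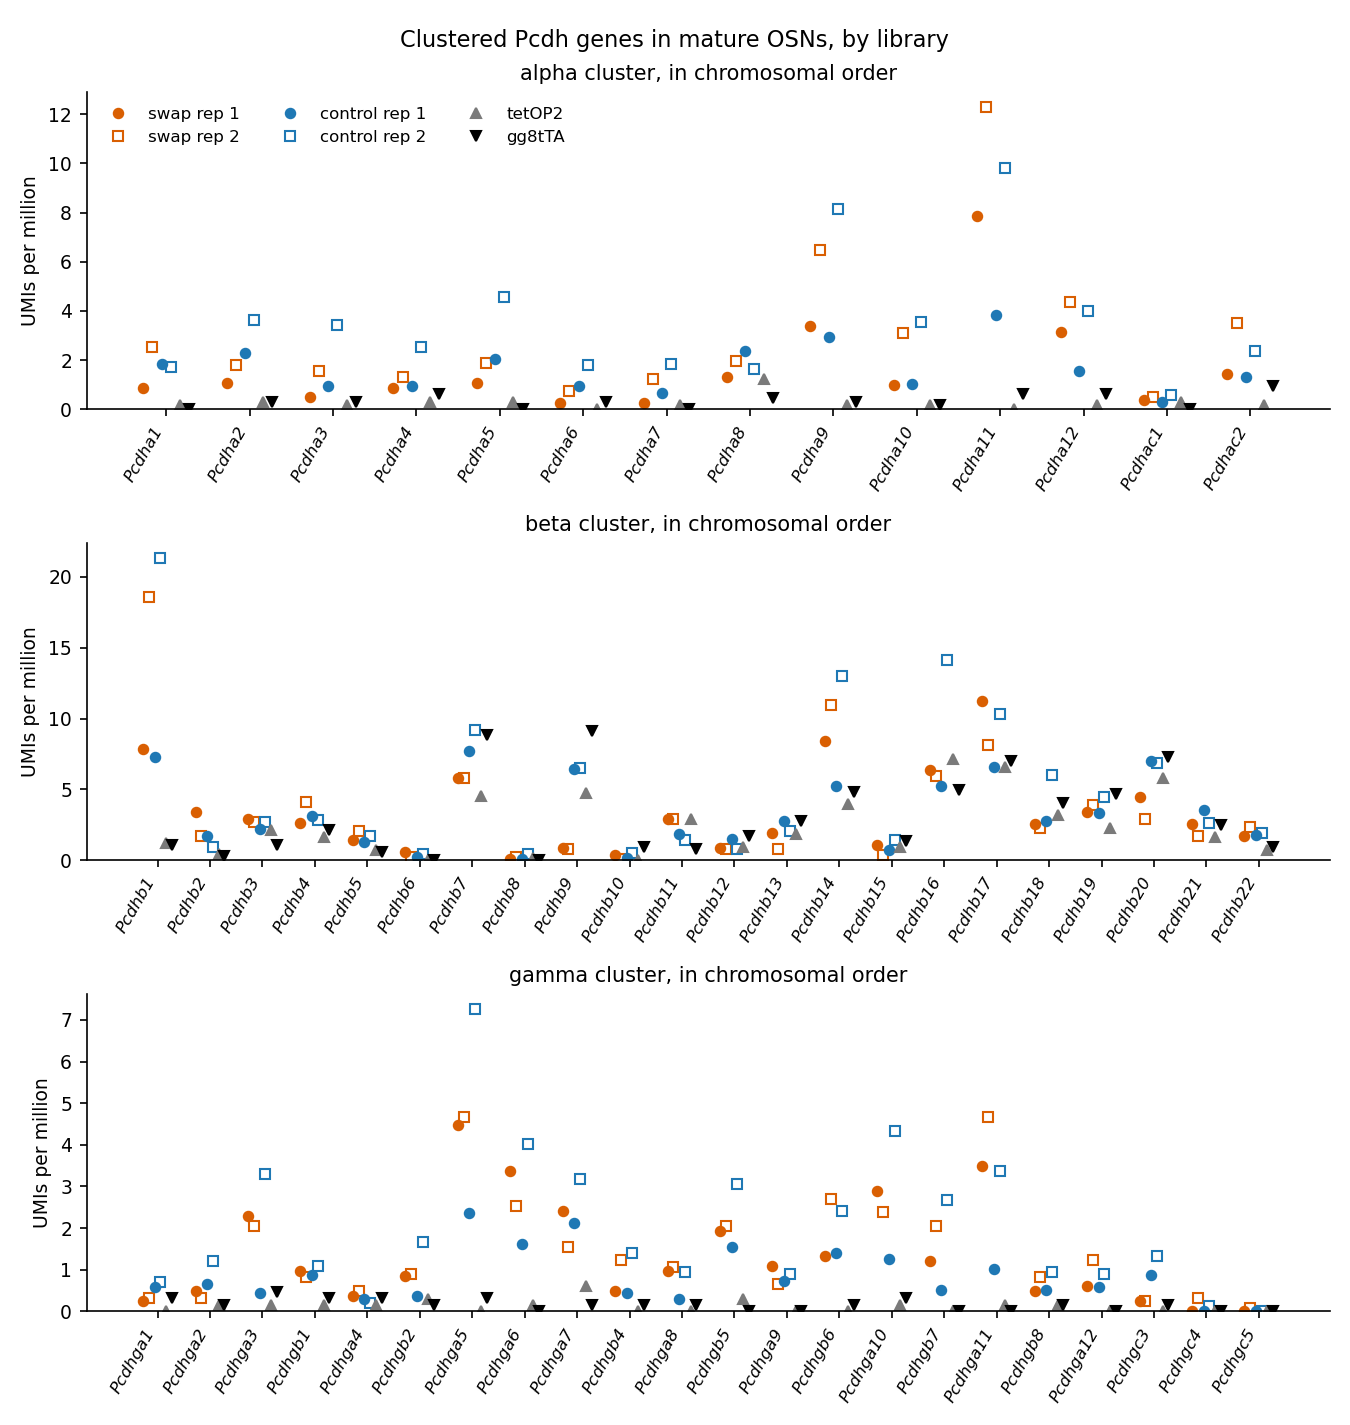
CPM of each clustered Pcdh gene in mOSNs, with 1 point per library and genes in chromosomal order in the alpha, beta and gamma clusters. Pcdhb1 is highest in the replicate 2 libraries (18.6 and 21.3), Pcdhb9 is low in both swap libraries (0.845 and 0.819), and alpha and gamma genes are near 0 in tetOP2 and gg8tTA.

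The number of clustered Pcdh genes per mOSN was small at this depth. Without thinning, the mean number with a UMI was 1.33 and 1.68 in swap, 1.24 and 2.22 in control, 0.595 in tetOP2 and 0.766 in gg8tTA, at median depths of 11287 to 12684 UMIs a cell. No member was seen in 31.4% and 22.9% of swap mOSNs, 31.1% and 14% of control mOSNs, 55.8% in tetOP2 and 44.9% in gg8tTA. The most in any cell was 14, in control replicate 2, and 4 to 8 in the other libraries. The plot of cells by number of genes shows the same order. These figures give genes captured, not genes used, since a transcript without a captured UMI is not seen.

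Alpha constant exons were captured far more often. PcdhaCon was seen in 76.5% to 87.9% of mOSNs of the 6 libraries and PcdhgCon in 38.6% to 47.9%. At least 1 alpha gene was seen in 21.3% and 35.9% of swap mOSNs, 22.5% and 41.6% of control mOSNs, 4.0% in tetOP2 and 5.05% in gg8tTA. At least 1 beta gene was seen in 50.6% and 56.1% of swap, 53.8% and 67.7% of control, 41.2% of tetOP2 and 51.2% of gg8tTA mOSNs. For beta genes the 6 libraries were therefore closer to each other than for alpha genes.

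B cells, which should lack these genes, gave the background. Their mean was 0 to 0.0472 genes a cell, at lower median depths of 2633 to 7669 UMIs, and 95.3% to 100% of B cells had none. After each cell was thinned to 3000 UMIs, the means in mOSNs were 0.362 and 0.436 in swap, 0.359 and 0.587 in control, 0.191 in tetOP2 and 0.215 in gg8tTA, with 0 to 23 shallower mOSNs left out a library. Thinned B cells had means of 0 to 0.0511, with 0 to 251 cells left out. The mOSN values thus lay above the B cell values in every library.

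**Figure D2:**
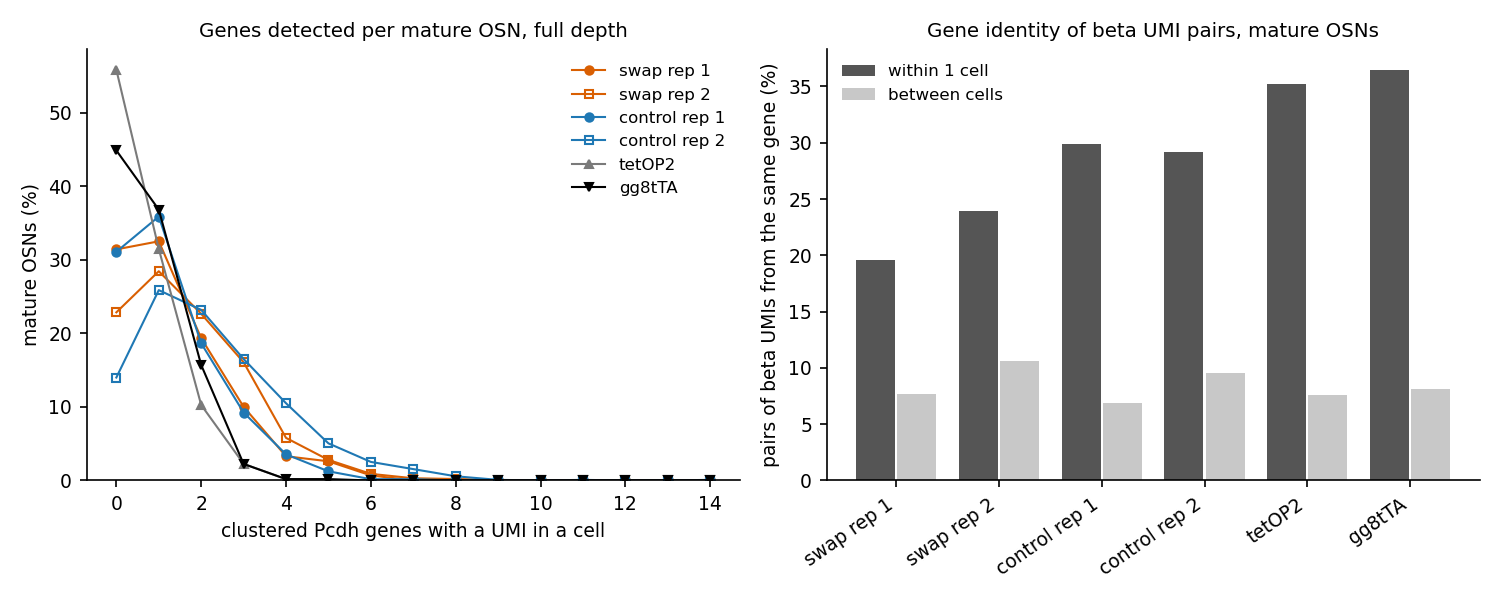
Left, share of mOSNs by number of clustered Pcdh genes with at least 1 UMI at full depth, 1 line per library. Right, share of pairs of beta UMIs from the same gene within 1 mOSN (mean over cells) and between mOSNs of 1 library (pooled over pairs). Within-cell shares of 19.6% to 36.5% exceed between-cell shares of 6.89% to 10.6% in every library.

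Identity was read from pairs of UMIs. In mOSNs with at least 2 beta UMIs, the share of a cell's UMI pairs from the same beta gene was averaged over cells. It was 19.6% and 24.0% in swap, 29.9% and 29.2% in control, 35.2% in tetOP2 and 36.5% in gg8tTA. Between mOSNs of the same library the share, pooled over all UMI pairs, was 7.71% and 10.6% in swap, 6.89% and 9.53% in control, 7.60% in tetOP2 and 8.13% in gg8tTA. The within-cell share was 2.26 to 4.63 times the between-cell share, with the weighting of cells differing between them. These rest on 85 to 463 cells a library. The swap values lay below the control values, with 2 libraries a group, and no test was made. This order did not hold for alpha or gamma genes in mOSNs. Nor did it hold for beta genes in late immature OSNs (29.2% and 35.6% in swap, 32.5% and 30.4% in control). UMIs primed at different places of 1 transcript cannot be told apart from UMIs of 2 transcripts, so the within-cell share holds both.

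The alpha genes gave within-cell shares 1.27 to 2.68 times the between-cell share and the gamma genes 2.5 to 2.9 times, in the 4 swap and control libraries. In tetOP2 and gg8tTA fewer than 20 mOSNs had a pair in either cluster. Sustentacular cells gave ratios of 2.34 to 3.97 for beta genes and 0.930 to 2.03 for gamma genes in the libraries with enough pairs, so a ratio above 1 for beta genes was not particular to mOSNs.

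Cells with a single best-counted member spread over many genes. Between 32 and 52 different genes led in at least 1 mOSN of a library. The most frequent leader was Pcdhb17 in swap replicate 1 and control replicate 1, Pcdhb1 in both replicates 2, Pcdhb16 in tetOP2 and Pcdhb9 in gg8tTA, with 8.45% to 16.5% of such cells. Among mOSNs with at least 2 members, 64.3% to 84.0% had a set of genes found in no other cell of their library, and the largest shared set was held by 2 to 6 cells. A leader could rest on 1 UMI. Few UMIs a cell drawn from many genes also give mostly different sets. No expectation from random capture was computed, so these shares do not measure diversity of identity.

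Receptor choice was compared with beta identity. In mOSNs that shared their leading receptor, beta UMIs of different cells came from the same gene in 6.70% and 11.9% of pairs in swap and 7.17% and 10.8% in control. With different receptors the shares were 7.89% and 10.5%, and 6.88% and 9.48%. The same-receptor share was higher in 3 of these 4 libraries, by little, and lower in swap replicate 1 and in gg8tTA (4.84% against 8.09%). In tetOP2, 343 mOSNs led with Olfr17 and gave 7.07% over 8646 pairs of cells, against 7.94% for pairs with different receptors. No test was made, since pairs share cells and 1 library stands for the genotype.

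Between Olfr17 mOSNs and the 221 mOSNs with another receptor in tetOP2, levels were close. PcdhaCon was 135 CPM (95% Poisson interval 123 to 147, which covers counting error only) against 143 (129 to 159). PcdhgCon was 52.9 CPM (45.8 to 60.7) against 51.2 (42.9 to 60.6). The beta genes summed to 49.4 CPM (42.6 to 57.0) against 58.8 (49.9 to 68.8). All intervals overlapped, and mOSNs with another receptor in the gg8tTA library had 156, 55.8 and 67.8 CPM. All 8 UMIs of Pcdhb1 were in Olfr17 mOSNs, in 8 cells; this gene was singled out after its values were seen.

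The levels were then followed along the neuron lineage, from globose basal cells (GBCs, the dividing progenitors) through immediate neuronal precursors (INPs) and late immature OSNs to mOSNs. A cluster led by Tex15 and Crabp1, with no name from the marker lists, stood between INPs and late immature OSNs in the swap and control libraries. In tetOP2 and gg8tTA a cluster of 221 cells with Crabp1 and Tex15 among its leading genes took the late immature name and is counted there. Another cluster of these libraries, of 172 cells, also had Crabp1 and Tex15 among its leading genes. It took no name and is in no stage of the lineage. Clustering used none of the 58 genes. PcdhaCon was 54.3 and 68.0 CPM in GBCs of swap and 55.9 and 99.2 of control, and 71.7, 47.7, 46.2 and 70.1 in INPs in the same order. It was 62.9, 121, 77.4 and 108 in the Tex15 and Crabp1 cluster, 186, 189, 181 and 237 in late immature OSNs, and 177, 195, 157 and 197 in mOSNs. The 4 late immature and 4 mature values all lay above the 12 earlier values.

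In a fit of all 5 stages with library as a block (edgeR quasi-likelihood test), PcdhaCon rose by a log2 fold change of 0.75 ± 0.17 (SE) from INPs to the Tex15 and Crabp1 cluster (adjusted p = 0.00179), and by 0.52 without swap replicate 2, which is below the fold needed for a call (0.58). It rose by a further 0.99 ± 0.13 to late immature OSNs (edgeR adjusted p = 9.6e-06). From late immature OSNs to mOSNs it moved by 0.06, which did not pass the test. The fit used TMM size factors, which scale for differences in composition. In CPM, which uses total UMIs only, PcdhaCon was lower in mOSNs in 5 of 6 libraries. Its direction at this step thus depended on the scaling and the libraries used. Over the whole course, mOSNs against GBCs, PcdhaCon was higher by 1.59 ± 0.13 (edgeR adjusted p = 2.1e-09).

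PcdhgCon took another course. It was 48.4 and 66.0 CPM in swap GBCs and 61.5 and 60.2 in control GBCs, and 113 to 122 in INPs of these 4 libraries. It was 46.7 to 69.8 in the Tex15 and Crabp1 cluster, 57.0 to 78.9 in late immature OSNs and 43.5 to 60.2 in mOSNs. In tetOP2 and gg8tTA the INP values were 155 and 160 CPM, again the highest of their lineage. PcdhgCon rose by a log2 fold change of 1.04 ± 0.12 from GBCs to INPs (edgeR adjusted p = 8.3e-07) and fell by 1.02 from INPs to the Tex15 and Crabp1 cluster (SE 0.13, edgeR adjusted p = 7.0e-06). From late immature OSNs to mOSNs the value was -0.27 (edgeR adjusted p = 0.0231), below the fold needed for a call. Outside the lineage PcdhgCon was 176 to 284 CPM in olfactory ensheathing glia, where PcdhaCon was 2.15 to 31.0.

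**Figure D3:**
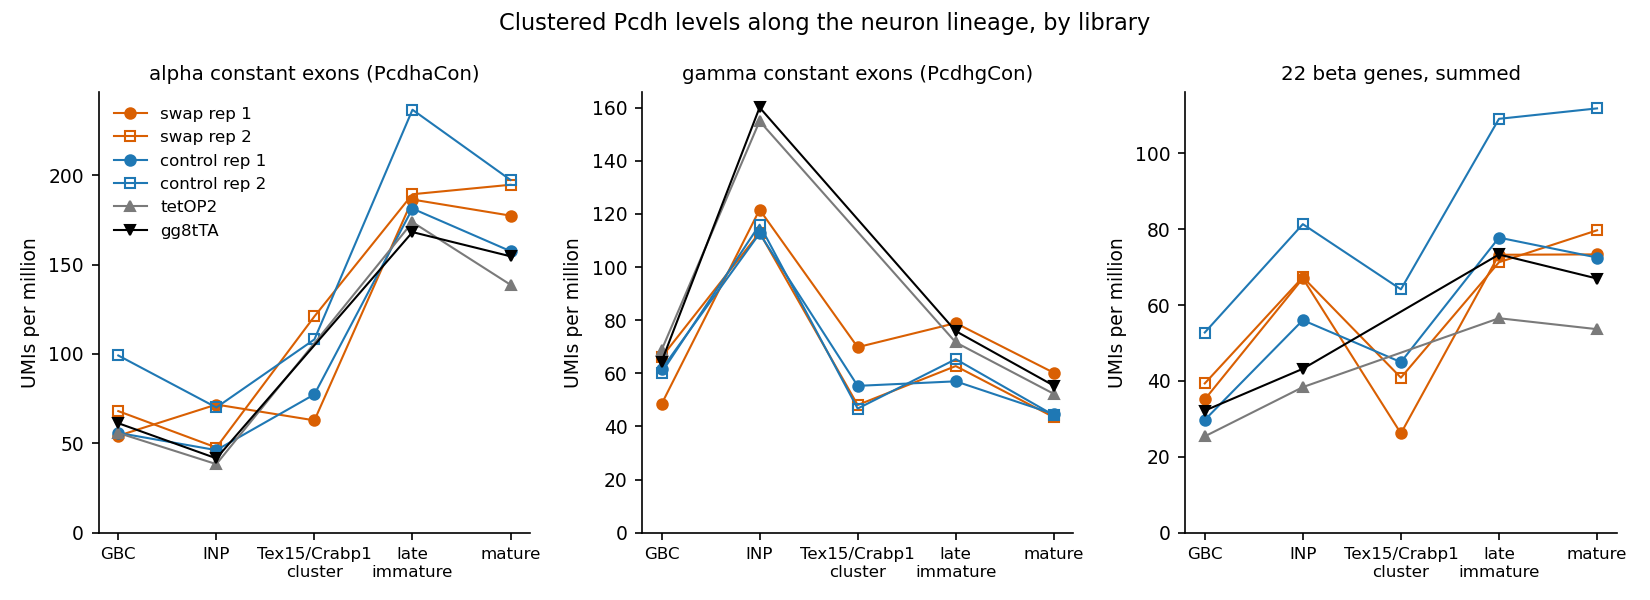
CPM of the alpha constant exons, the gamma constant exons and the sum of the 22 beta genes by stage, 1 line per library. The tetOP2 and gg8tTA lines have no separate Tex15 and Crabp1 cluster. Cells like it are partly among their late immature OSNs and partly in an unnamed cluster that is not shown. PcdhaCon is 157 or more in late immature OSNs and mOSNs of swap and control, and PcdhgCon is highest in INPs (113 to 160).

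The beta genes together had 29.7 to 52.8 CPM in GBCs of swap and control, 56.0 to 81.3 in INPs, 26.2 to 64.1 in the Tex15 and Crabp1 cluster, 71.3 to 109 in late immature OSNs and 72.5 to 112 in mOSNs. Between late immature OSNs and mOSNs the difference over 6 libraries was -0.533 CPM (exact sign-flip permutation test, p = 0.81, 3 of 6 libraries lower). Without Pcdhb9, a gene singled out after its values were seen, the beta genes differed by 4.96 CPM (exact permutation p = 0.09375, not adjusted, 5 of 6 higher). That sum kept Pcdhb1, the member with the largest rise at this step in the stage fit (log2 fold change 3.1). It therefore does not show that the other beta genes rose. PcdhaCon differed by -19.2 CPM (170 ± 23.6 against 189 ± 24.5, SD, n = 6; exact permutation p = 0.0625, 5 of 6 lower). PcdhgCon differed by -18.5 CPM (50.04 ± 6.96 against 68.6 ± 8.35; exact permutation p = 0.03125, the smallest that 6 libraries allow, 6 of 6 lower). Adjusted over the 6 quantities tested, PcdhgCon had p = 0.1125 in this exact permutation test.

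All 58 genes summed to 123 CPM in mOSNs and 137 in late immature OSNs, a difference of -13.6 CPM in the same direction in 6 of 6 libraries (exact permutation p = 0.03125). Within this sum the alpha genes differed by -7.73 CPM and the gamma genes by -5.30 (exact permutation p = 0.09375 and 0.0625, not adjusted). The beta genes differed by -0.533 CPM. By cluster, the net difference thus lay mainly in the alpha and gamma genes, whose capture differed between libraries. The beta net includes the rise of Pcdhb1, a log2 fold change of 3.1 in the stage fit. The beta genes without Pcdhb1 were not summed, so a fall among them could be hidden in this net. Genes per cell, thinned to 3000 UMIs, differed by -0.0267 (0.358 against 0.385; exact permutation p = 0.03125, 6 of 6). The 2 measures share their libraries and their UMIs. Both are relative to total UMIs, without the size factors of the stage fit, and the part of that scaling was not tested. Without the Crabp1 and Tex15 cells counted as late immature in tetOP2 and gg8tTA, an alternative added after the data were seen, they were -16.3 CPM and -0.0374 (exact permutation p = 0.03125 for each). Without thinning, the difference in genes per cell was -0.00167 (exact permutation p = 0.969, 3 of 6).

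Of the 58 genes, 18 passed the filter on low counts in the stage fit, so counts of calls describe the more abundant ones. From GBCs to INPs, 7 rose and 0 fell, where 45.6% of the 12261 genes tested were called, 20.8% higher and 24.9% lower. They were Pcdhga6 (log2 fold change 1.85), Pcdhb16 (1.55), Pcdhb17 (1.53), Pcdhb21 (1.52), Pcdhb20 (1.51), Pcdhb18 (1.48) and Pcdhb9 (1.47), with edgeR adjusted p from 0.00074 for Pcdhga6 to 0.0383 for Pcdhb21. The median over the 18 was 1.00, against -0.051 over all genes tested. Pcdhb9, with 0 to 15 UMIs in INPs of a library, and Pcdhb16, Pcdhb18 and Pcdhb21 were each no longer called without at least 1 of the libraries.

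From INPs to the Tex15 and Crabp1 cluster 2 genes fell, Pcdhb21 by 2.51 and Pcdhga7 by 1.52 on the log2 scale (edgeR adjusted p = 0.0122 and 0.0379), and 0 rose, where 26.9% of all genes were called, 14.7% higher and 12.2% lower. Without swap replicate 1 or without swap replicate 2 this count was 0, and without control replicate 1 it was 1. From that cluster to late immature OSNs 5 rose, Pcdhb14 (1.79 ± 0.38), Pcdhb17 (1.55 ± 0.35), Pcdha9 (1.42 ± 0.45), Pcdha11 (1.28 ± 0.48) and Pcdhb20 (1.23 ± 0.40). Pcdhgc3 fell by 1.38 (SE 0.48, edgeR adjusted p = 0.0267). The share called among all genes there was 32.1% (19.2% higher and 12.9% lower), and the edgeR adjusted p of the 5 that rose ran from 0.00094 (Pcdhb14) to 0.0392 (Pcdha11). Each of these calls except Pcdhb14 and Pcdhb17 was lost without at least 1 of the libraries.

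From late immature OSNs to mOSNs 2 genes rose and 1 fell of the 18, where 35.8% of all genes were called, 18.7% higher and 17.1% lower. The rise of Pcdhb1 was the largest, a log2 fold change of 3.1 ± 0.28 (edgeR adjusted p = 4.2e-08). Its late immature UMIs were 10 and 5 in swap, 7 and 11 in control, 1 in tetOP2 and 2 in gg8tTA, or 0.196 to 3.44 CPM. Every mOSN value of Pcdhb1 in swap and control (7.27 CPM or more) exceeded every earlier one. In tetOP2 and gg8tTA, which were not in the fit, it was 1.22 and 1.09 CPM in mOSNs and 0.196 and 0.285 in late immature OSNs.

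Pcdhb14 rose by 0.91 ± 0.24 (edgeR adjusted p = 0.00342). It was 4.34 and 5.70 CPM in late immature OSNs of swap, 4.29 and 8.13 in control, 1.18 in tetOP2 and 2.71 in gg8tTA, and mOSNs were higher in all 6 libraries. Pcdhgc3, the most abundant C-type gamma gene, fell by 1.36 (SE 0.45, edgeR adjusted p = 0.0173), from 1.32, 3.14, 1.48 and 1.88 CPM to 0.241, 0.246, 0.882 and 1.34 in swap replicates 1 and 2 and control replicates 1 and 2. Without swap replicate 1 its edgeR adjusted p was 0.0866 and without swap replicate 2 it was 0.114. It had 8.66 to 11.2 CPM in INPs of 3 libraries and 1.56 in swap replicate 1. In the control libraries alone, Pcdhb1 was the 1 member called of 16 tested, where 3594 of all 11954 genes tested were called.

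**Figure D4:**
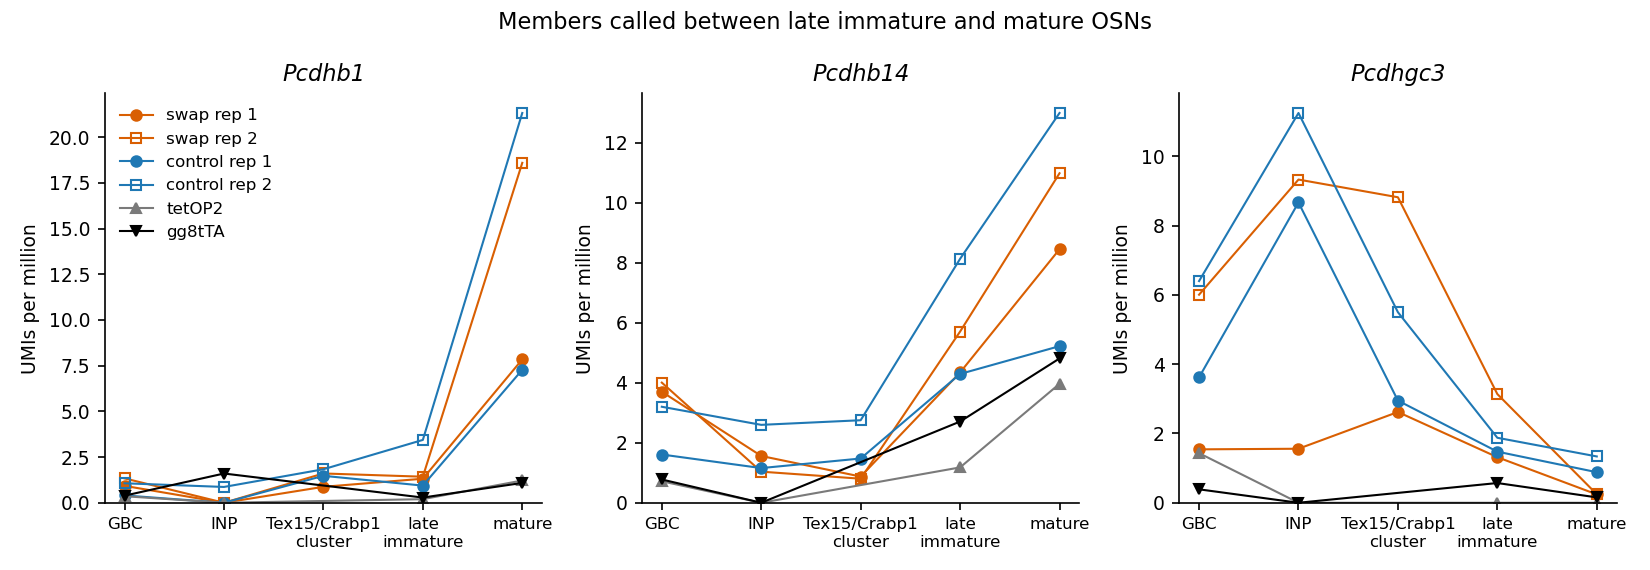
CPM of Pcdhb1, Pcdhb14 and Pcdhgc3 by stage, 1 line per library. The tetOP2 and gg8tTA lines have no separate Tex15 and Crabp1 cluster. Cells like it are partly among their late immature OSNs and partly in an unnamed cluster that is not shown. Pcdhb1 is at 3.44 or less before the mOSN stage and at 7.27 to 21.3 in swap and control mOSNs, and Pcdhgc3 is at 1.34 or less in mOSNs of swap and control.

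Over the whole course, mOSNs against GBCs, 7 of the 18 genes were higher and 1 lower, where 67.9% of all genes were called, 36.1% higher and 31.8% lower. Pcdhb1 was higher by 3.94 ± 0.35, Pcdha9 by 2.26 ± 0.45, Pcdhb17 by 2.11 ± 0.33, Pcdha11 by 1.82 ± 0.46, Pcdhb14 by 1.70 ± 0.27, Pcdhb20 by 1.66 ± 0.36 and Pcdhga5 by 1.19 ± 0.35, all log2 fold changes. In the control libraries alone Pcdha11 (1.27, edgeR adjusted p = 0.145) and Pcdhga5 (1.25, edgeR adjusted p = 0.11) were not called. Pcdhgc3 was lower (-2.40 ± 0.46, edgeR adjusted p = 0.000128). The share of members called, with 18 tested, was thus below the share among all genes. The part of the members' low counts in this was not tested. In the control libraries alone 9 of 16 members were called, where 7645 of 11954 genes were called.

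The genes that regulate or partner the clusters, a list of 43 of which 40 were tested, were followed along the same stages. From GBCs to INPs 8 rose and 9 fell, where 20.8% of all genes rose and 24.9% fell, so the counts were near the background. From late immature OSNs to mOSNs 2 rose and 11 fell, where 18.7% of all genes rose and 17.1% fell. Smchd1, a chromatin protein of the structural maintenance of chromosomes family, was at 218 ± 53.6 CPM in GBCs, 1611 ± 267 in INPs, 785 ± 88.1 in the Tex15 and Crabp1 cluster, 118 ± 16.5 in late immature OSNs and 68.7 ± 7.03 in mOSNs (SD, n = 4). Its log2 fold changes in that order were 2.95, -0.96, -2.86 and -0.60, all called by edgeR (largest adjusted p = 1.8e-05); the last was called in 2 of 8 alternatives only, since its size lay at the threshold.

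Ctcf, the architectural factor, went from 262 ± 15.8 CPM in GBCs to 149 ± 11.6 in mOSNs (log2 fold change -0.65, edgeR adjusted p = 3.3e-06). Rad21, a cohesin subunit, went from 232 ± 53.0 to 113 ± 37.1 CPM (-0.89, edgeR adjusted p = 1.1e-07), with its fall between GBCs and INPs (-1.17, edgeR adjusted p = 1.3e-07). Dnmt1, the maintenance DNA methyltransferase, was lower in mOSNs than in GBCs (-2.78, edgeR adjusted p = 1.6e-14), and Dnmt3a, a de novo DNA methyltransferase, was higher (1.92, edgeR adjusted p = 7.4e-12). Marcks, a cytoskeletal substrate of protein kinase C, fell by 2.67 from late immature OSNs to mOSNs (edgeR adjusted p = 8.6e-12), and Fyn, a Src-family kinase, fell by 2.13 (edgeR adjusted p = 3.9e-10).

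Of 12 nonclustered protocadherins, which lie outside the clusters, 9 were tested. In mOSNs against GBCs 7 were higher and 1 lower, where 36.1% of all genes were higher and 31.8% lower. Pcdh10 was the most changed of those that rose (log2 fold change 4.67 ± 0.25, edgeR adjusted p = 7.8e-12), and Pcdh18 was the 1 that was lower (-6.74). From late immature OSNs to mOSNs 3 rose and 1 fell, where 35.8% of all genes were called.

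Swap and control were compared in mOSNs, 2 libraries against 2, which asks whether replacing HP1β by HP1α moved the clusters. The label check came first. Cbx1 had 8 and 40 UMIs in swap mOSNs and 1111 and 2434 in control mOSNs, or 0.965 and 3.28 against 81.6 and 155 CPM. Cbx5 was 73.6 and 88.7 CPM in swap and 19.0 and 28.7 in control. The groups did not overlap for either gene, and both lay in the direction the labels state. In B cells Cbx1 was 93.6 and 77.4 CPM in swap and 124 and 97.3 in control, against 0.688 and 1.41 and 61.9 and 46.0 in sustentacular cells. The edgeR log2 fold change of Cbx1 was -5.74 (adjusted p = 0.102), so edgeR with 2 libraries a group did not call even the replaced gene in mOSNs, whereas DESeq2 did (-5.77, adjusted p = 6.8e-18). In late immature OSNs edgeR called Cbx1 (-5.81, adjusted p = 0.0419).

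Of the 49 members tested in mOSNs, edgeR called 0, and it called 0 of all 12451 genes (0%). At an unadjusted edgeR p below 0.05 there were 3 members, Pcdhb9, Pcdhgc3 and Pcdhb20, and 310 genes in all. DESeq2 called 188 of 14115 genes, or 1.33%, of which 134 (0.949%) were lower, with 1 member, Pcdhb9. The median log2 fold change over the 49 members was -0.11, against -0.016 over all genes tested, with 19 above 0 and 30 below. Without control replicate 2 the members' median was 0.26, and without control replicate 1 it was -0.59.

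The constant exons and the summed levels lay within the spread of the libraries. PcdhaCon was 177 and 195 CPM in swap and 157 and 197 in control (log2 fold change 0.05 ± 0.20). PcdhgCon was 60.2 and 43.5 in swap and 44.7 and 44.2 in control (0.19 ± 0.23). The 58 genes summed to 141 CPM in swap and 160 in control, a difference of -18.8 (exact permutation p = 1). Genes per mOSN, thinned, were 0.399 and 0.473, a difference of -0.0743 (exact permutation p = 1). The smallest p that 2 against 2 allows is 0.333. Both differences turned positive without control replicate 2, to 27.4 CPM and 0.0399 genes. That library had the lowest share of barcodes kept and the most Omp in sustentacular cells, and it differs in genotype from control replicate 1.

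Pcdhb9, a beta gene in the middle of its cluster, stood apart from the other members in mOSNs. Its UMIs were 7 and 10 in swap and 88 and 102 in control, or 0.845 and 0.819 against 6.47 and 6.49 CPM. The tetOP2 library had 31 UMIs (4.72 CPM) and the gg8tTA library 59 (9.15 CPM). Both swap values lay below the 4 others, and the replicates of each group differed little. A UMI of Pcdhb9 was seen in 0.823% and 0.898% of swap mOSNs and in 5.86% and 5.53% of control mOSNs. The log2 fold change was -2.98 ± 0.35 (edgeR adjusted p = 0.102; DESeq2 -2.99, adjusted p = 0.00025), and it ran from -3.03 to -2.78 over the 11 alternatives, of which the 2 by DESeq2 called it. It thus was called by DESeq2 and not by edgeR.

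In late immature OSNs Pcdhb9 was 1.32 and 7.13 CPM in swap, from 10 and 25 UMIs, and 10.5 and 10.0 in control, from 78 and 32. The tetOP2 library had 13.3 and the gg8tTA library 19.2 CPM. The swap replicates differed here, and the log2 fold change was -1.39 ± 0.73 (edgeR adjusted p = 1.0). Without swap replicate 1 it was -0.55 and without swap replicate 2 it was -2.95 (edgeR adjusted p = 0.0823). Swap replicate 2 therefore held a level near the controls at this stage and a low level in mOSNs. Pcdhb9 was lower in mOSNs than in late immature OSNs in every library, so a fall at this step was not particular to swap.

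In the Tex15 and Crabp1 cluster Pcdhb9 had 0 and 5 UMIs in swap and 9 and 11 in control, and in INPs 0 and 9 against 15 and 8. The 95% Poisson interval of the 0 count in INPs of swap replicate 1, over 74 cells, reached 5.75 CPM for Pcdhb9 and overlapped those of both controls (8.66 and 6.92 CPM). In GBCs there were 1 and 3 UMIs in swap against 8 and 8 in control, and in horizontal basal cells, the quiescent stem cells, 0 and 0 against 4 and 4. Swap replicate 1 was thus at 0 or 1 UMI in each of these cell types. Its counting interval overlapped those of both controls in INPs and horizontal basal cells, and that of control replicate 1 but not of control replicate 2 in GBCs and in the Tex15 and Crabp1 cluster. Swap replicate 2 overlapped both controls in all 4 cell types.

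Pcdhb20 was 4.46 and 2.95 CPM in swap mOSNs and 6.98 and 6.87 in control (log2 fold change -0.94 ± 0.35, edgeR adjusted p = 1.0). Pcdhgc3 had 2 and 3 UMIs in swap and 12 and 21 in control (-2.16 ± 0.66, edgeR adjusted p = 1.0). Neither gene was called by DESeq2. The groups did not overlap for either gene, but with 2 libraries a group this also held for other members, such as Pcdhb18 and Pcdha2. It does not set these genes apart. Of the neighbours of Pcdhb9, Pcdhb7 was 5.79 and 5.82 CPM in swap and 7.72 and 9.23 in control (log2 fold change -0.57, edgeR adjusted p = 1.0). Pcdhb11 was 2.90 and 2.95 against 1.84 and 1.46. Pcdhb8 and Pcdhb10, which lie next to Pcdhb9, had at most 8 UMIs in any of these 4 libraries, too few for a comparison.

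**Figure D5:**
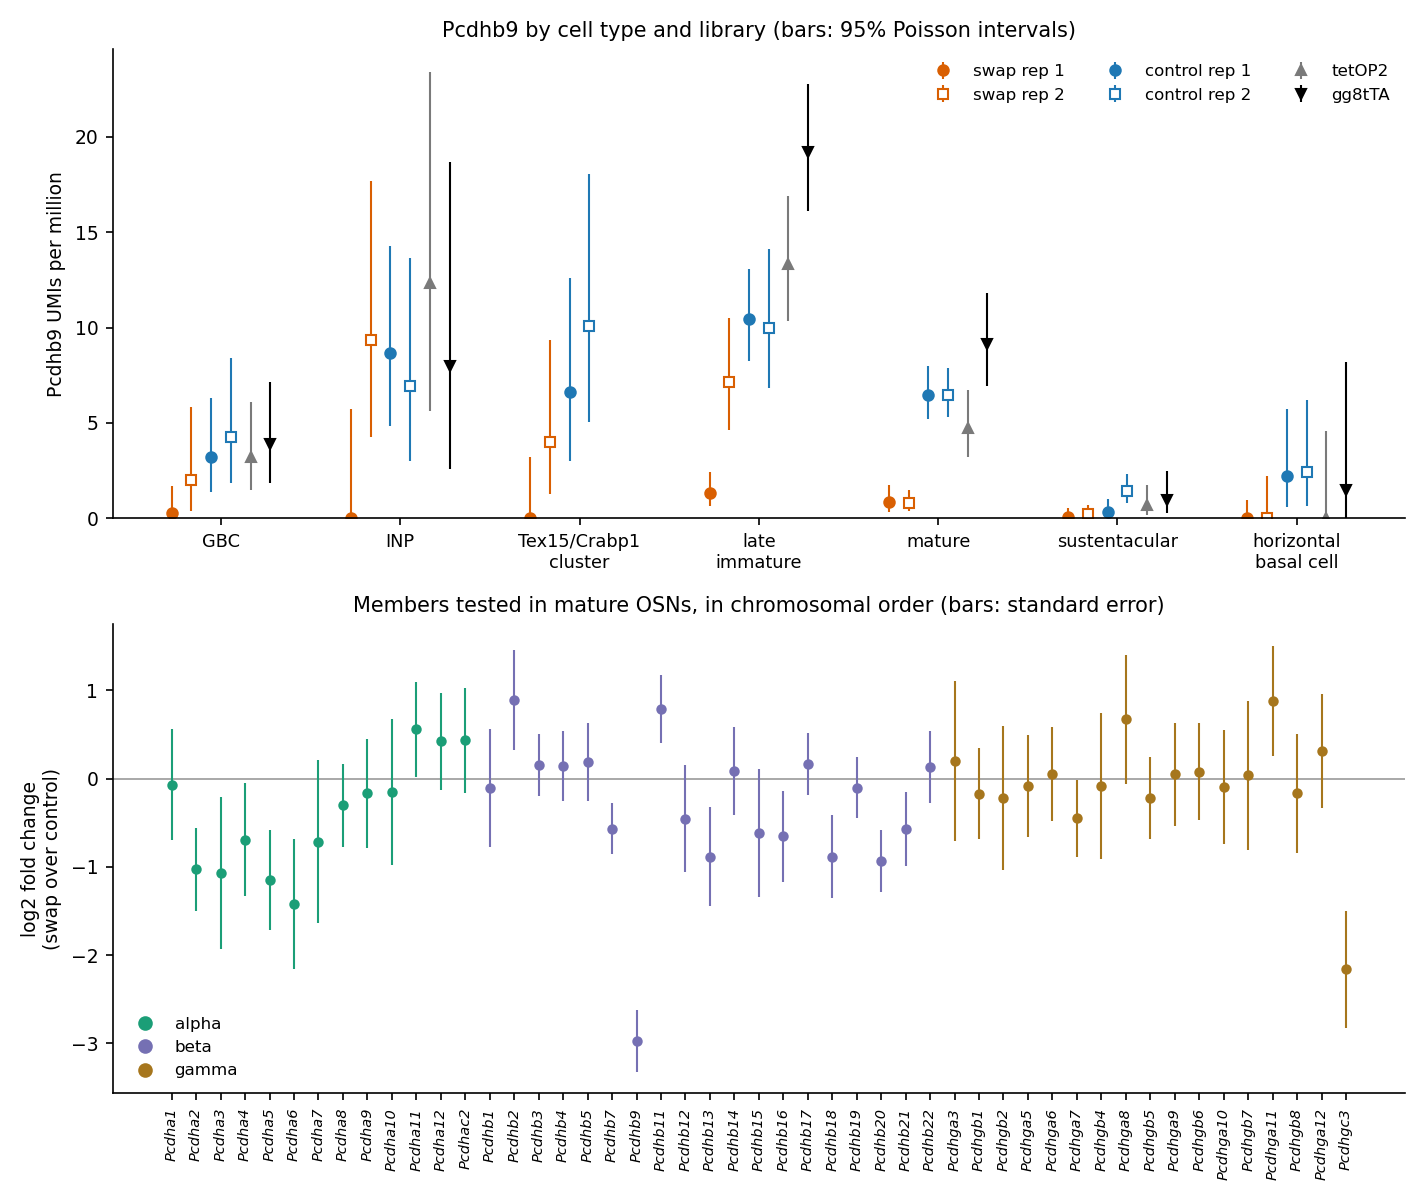
Top, Pcdhb9 CPM by cell type and library with 95% Poisson intervals for counting error. Bottom, log2 fold change of swap over control in mOSNs for the 49 members tested, with standard errors, in chromosomal order; Pcdhb9 (-2.98) lies lowest, followed by Pcdhgc3 (-2.16).

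In late immature OSNs edgeR called 0 of 33 members, where 12 of 11623 genes (0.103%) were called, 0.0344% higher and 0.0688% lower, among them Cbx1. At an unadjusted edgeR p below 0.05 there were 3 members: Pcdhb16 (log2 fold change -0.98), Pcdhb11 (1.79) and Pcdhga11 (1.43), and 230 genes in all. DESeq2 called 66 genes (0.377%, with 0.177% lower) and 0 members. In sustentacular cells, added after the data were seen, edgeR called 0 of 23 members and 0 of 12718 genes (0%), with 3 members (Pcdhb7, Pcdhb16 and Pcdhb17) and 121 genes at an unadjusted p below 0.05. DESeq2 called 28 genes (0.224%, with 0.0719% lower) and 0 members. Neither the regulators and partners nor the nonclustered protocadherins had a call by edgeR in these 3 comparisons.

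Nqo1 is an enzyme gene of the dorsal epithelium. Cells with at least 1 Nqo1 UMI (Nqo1-positive) were compared with cells with none (Nqo1-negative) among mOSNs of the 4 swap and control libraries, with library as a block. Nqo1-negative mOSNs can include dorsal cells in which Nqo1 was not captured, so the classes stand only in part for dorsal and ventral mOSNs. There were 310 to 463 Nqo1-positive and 419 to 766 Nqo1-negative mOSNs a library. EdgeR called 0 of 37 members, where it called 866 of 11711 genes (7.39%, with 2.63% higher and 4.76% lower). DESeq2 also called 0 members, where it called 555 of 13776 genes. At an unadjusted edgeR p below 0.05 there were 3 members, Pcdhb21 (log2 fold change 0.85), Pcdhga11 (0.56) and Pcdhb1 (0.29), and 3093 genes in all. PcdhaCon was 162 to 203 CPM in Nqo1-positive mOSNs and 155 to 194 in Nqo1-negative mOSNs. Within each of the 4 libraries it was higher in the Nqo1-positive class, by little. Without swap replicate 1, Pcdhb21 was called (1.04, edgeR adjusted p = 0.0423). Pcdh1, a nonclustered protocadherin, was lower in Nqo1-positive mOSNs (-2.25 ± 0.18, edgeR adjusted p = 0.000199).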

How the data were processed

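The deposited matrices hold raw UMI counts per gene and cell, which the authors made with Cell Ranger on mm10. The study states that introns were included, but whether this held for tetOP2 and gg8tTA was not settled. The headers of 4 matrices give software version 3.1.0; for the other 2 the version is not given in the sources used here. Barcodes below 1000 UMIs or below 500 genes were dropped, which left 2563 to 5091 cells a library, and predicted doublets (53 to 207) were then removed. Cells were clustered separately in the swap and control and in the gg8-tTA libraries (scanpy 1.11.5, leidenalg 0.10.2, resolution 1.5), with no member gene among the 2000 variable genes, and named from fixed marker lists. The early immature list named no cluster, so an unnamed cluster replaced it.

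Counts were summed per library and cell type (20 cells or more) and tested with edgeR 4.0.16 (quasi-likelihood, TMM, filterByExpr). A call needed p below 0.05 after Benjamini-Hochberg adjustment over the whole table and a log2 fold change beyond 0.58 in either direction. DESeq2 1.42.0 was the alternative. Stage and Nqo1 fits had library as a block. Single values were tested by exact two-sided permutation. The scripts were tested on simulated data.

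Named with values were the 10 members highest in mOSNs, the C-type genes, members called (at most 8 a comparison), Cbx1, Cbx5, the regulators Ctcf, Rad21 and Smchd1 and at most 6 others called. Pcdhb9, Pcdhb20, Pcdhgc3 and other members at an unadjusted p below 0.05, and the neighbours of Pcdhb9, were named after their values were seen. The members and lists were chosen with earlier results of these data known. Sequences and the Cre driver are not reported here.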

Additional observations from a re-analysis of the deposited data

How the results depend on the processing

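No member was called by edgeR between swap and control under other size factors, no filter, the Omp gate, kept doublets or any left-out library. With the replicate block edgeR also called 0 (Pcdhb9 -2.97, adjusted p = 0.123), against 1 member by DESeq2 with or without the block; the DESeq2 block fit was added after the data were seen. Replicate numbers came from the labels, which do not say that they mark a shared day or litter; the replicate differences of swap and control correlated at r = 0.263 over 12451 genes, and with 2 pairs this shows no pairing. The summed level difference ran from -65.0 to 27.4 CPM and genes per mOSN from -0.188 to 0.0399 over left-out libraries, and with the replicate block they stayed at -18.8 CPM and -0.0743. Genes per cell, mature minus late immature, were -0.00167 with no thinning, -0.00534 at 2 UMIs and -0.0314 in swap and control only, where the summed level was -17.9 CPM; over left-out libraries they ran from -0.0293 to -0.0219, and the sum from -15.8 to -12.1 CPM, with p = 0.0625 in each exact permutation test, the smallest that 5 libraries allow.

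Counts of members called moved as follows. In control libraries only they were 1 from late immature OSNs to mOSNs, 0 from the Tex15 and Crabp1 cluster to late immature OSNs, 0 from INPs to that cluster and 4 from GBCs to INPs. From GBCs to mOSNs the count was 9. Genes called in all, in the same order, were 3594, 3147, 2251, 4259 and 7645 of 11954, with 16 members tested. DESeq2 and no filter gave 4 and 4, 15 and 13, and 23 and 25 for INPs to the cluster, GBCs to INPs and GBCs to mOSNs. By DESeq2, 3525 of 14603, 6062 of 14975 and 9463 of 16832 genes were called in all, in the same order. With no filter these were 3228, 5826 and 10018 of 19433. The 58 members had a p-value in each, but DESeq2 gave an adjusted p-value to part of the genes only. Over left-out libraries the counts ran from 0 to 3 for INPs to the cluster and from 0 to 1 for the Nqo1 classes (1 without swap replicate 1). Genes called in all were 2714 to 2954 of 11565 to 12087 tested, and 565 to 820 of 11282 to 11770. The causes were not tested, beyond the larger number of genes tested with no filter or DESeq2. The planned contrasts with early immature OSNs were not run as planned, since no cluster took that name.

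Of 510 alternative values for 58 named gene results, 431 kept their side of the threshold and direction, 50 were no longer called, 10 became called and 19 turned sign. All 19 were uncalled swap against control log2 fold changes in mOSNs. Over left-out libraries these ran from -0.73 to 0.68 for Pcdha9, -0.37 to 0.93 for Pcdhac2, -0.065 to 0.16 for PcdhaCon, -0.89 to 0.79 for Pcdhb1, -0.40 to 0.82 for Pcdhb14, -1.17 to 0.17 for Pcdhb16, -0.079 to 0.46 for Pcdhb17, -0.26 to 0.070 for Pcdhb19, -0.65 to 0.88 for Pcdhga5 and -0.043 to 0.40 for PcdhgCon. By the Omp gate PcdhaCon was -0.017, and with the replicate block Pcdhga5 was 0.093 by edgeR and 0.10 by DESeq2. Without any 1 library edgeR called 202 to 232 genes in mOSNs, against 0 with all 4; the cause was not tested. Members with few UMIs, such as Pcdhgc5 with 1, allow no statement on swap.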

Other observations

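PcdhaCon in sustentacular cells, which are not neurons, was 29.1 and 63.8 CPM in swap, 30.1 and 74.5 in control, 40.7 in tetOP2 and 37.3 in gg8tTA. Omp there was 70.9, 353, 21.3, 633, 196 and 144 CPM in the same order. The 2 libraries with most Omp in these cells also had most PcdhaCon; the part of free RNA in this was not tested. Horizontal basal cells of these libraries had 1.48 to 7.41 CPM of PcdhaCon and 52.1 to 84.8 of PcdhgCon. Endothelial cells of the 4 libraries with 20 or more of them had 0 to 12.0 CPM of PcdhaCon and 98.0 to 137 of PcdhgCon. The beta genes summed to 19.0 to 66.0 CPM in horizontal basal cells and to 57.9 to 102 in those endothelial cells.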
